A study of Mus musculus with 9 samples.

Results

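The genes described here encode the scaffold, the resident partners and the SUMO machinery of PML nuclear bodies: Pml, Sp100, Daxx, Atrx, Sumo2, Sumo3, Rnf4 and Usp7. They were taken by name from the deposited expression table, and the RefSeq transcripts listed under each name were summed. All 8 genes were found, with 10 of the 21388 transcripts and among 16537 genes in all. The study sequenced RNA of cells sorted from the bone marrow of mice of the inbred strain FVB/NJ, with 3 libraries in each of 3 groups. Wild-type mice at postnatal day 42 gave the normal group, hematopoietic progenitor cells or HPC. PML-RAR mice gave leukemic progenitors or LP, in an early phase (early LP) and in a phase that the labels call median (median LP). PML-RAR is the fusion of PML with retinoic acid receptor alpha found in acute promyelocytic leukemia. The sources used here do not give the promoter that drives it, the sorting markers, the age of the PML-RAR mice or the number of animals per library. Whether the replicate libraries come from different mice is not stated either, and each p-value therefore covers only the spread between libraries, part of which may be technical.

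PML nuclear bodies are spherical protein assemblies of the cell nucleus, built on a shell of PML protein that recruits partners through conjugated SUMO, a small modifier related to ubiquitin. Ligases of the SUMO-targeted kind then mark SUMO-laden PML with ubiquitin for the proteasome, the route that arsenic uses to degrade PML and the fusion. In acute promyelocytic leukemia the fusion protein scatters these bodies into small speckles. The data here are RNA levels and hold no measure of the bodies or of the proteins.

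Pml RNA comes in the table as a pair of transcripts, and the stretch that sets them apart carries one of the findings below. NM_178087 holds exon 5 of its 9 exons, and NM_008884 has 8 exons and skips it. The skipped exon is 138 bases long (46 codons, all coding) and lies on the minus strand at chr9:58230491-58230628 (GRCm38, the assembly also called mm10). It is printed below 5′ to 3′ on the strand of the gene, cut from the GENCODE M21 transcript sequence at its exon boundaries. No base is in capitals since the whole exon is the difference. With it the coding sequence has 885 codons before the stop, and without it 839.
Pml exon 5: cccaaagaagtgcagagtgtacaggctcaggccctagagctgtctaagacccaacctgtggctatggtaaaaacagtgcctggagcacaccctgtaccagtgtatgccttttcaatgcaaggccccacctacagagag

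Sumo2 and Sumo3 encode near-identical modifiers, and their coding sequences are shown because the levels below compare these paralogues. Over 282 aligned coding bases they were identical at 83.0%, and the longest stretch without a difference was 17 bases. Capitals mark bases that differ between them or that have no partner in the other (GENCODE M21, 5′ to 3′, the first 270 coding bases of each).
Sumo2: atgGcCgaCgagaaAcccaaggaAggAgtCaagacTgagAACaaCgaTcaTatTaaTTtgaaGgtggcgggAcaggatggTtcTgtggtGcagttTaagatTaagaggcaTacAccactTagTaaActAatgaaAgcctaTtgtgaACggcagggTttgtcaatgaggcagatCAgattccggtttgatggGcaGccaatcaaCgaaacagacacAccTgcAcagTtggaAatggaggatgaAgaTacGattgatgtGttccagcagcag
Sumo3: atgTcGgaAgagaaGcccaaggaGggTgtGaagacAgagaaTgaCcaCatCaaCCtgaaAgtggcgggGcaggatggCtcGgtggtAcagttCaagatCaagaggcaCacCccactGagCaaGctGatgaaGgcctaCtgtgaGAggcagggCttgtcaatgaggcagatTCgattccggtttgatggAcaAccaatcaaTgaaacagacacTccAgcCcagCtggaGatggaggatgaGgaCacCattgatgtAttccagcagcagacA

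Depth was 20.6 to 28.4 M (mega) fragments per library, recovered from the steps between low values in the table, against deposited totals of 21.9 to 25.8 M estimated counts. Behind each value of these genes stood between 671 (Daxx) and 11282 (Sumo2) recovered fragments. Levels are given in CPM, counts per 1 M counts after TMM scaling, and comparisons between genes are made in FPKM, fragments per kilobase and 1 M fragments. Changes are log2 fold changes from edgeR's quasi-likelihood test over 12837 genes, with a standard error (SE) and a Benjamini-Hochberg adjusted p. All 8 genes passed the filter on low counts.

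In early LP, Sp100 rose to more than 2-fold its HPC level, and Pml, Daxx, Atrx, Sumo2, Sumo3, Rnf4 and Usp7 fell. Usp7 fell by 16.3% and Pml fell by 36.2%, the ends of the range. So 1 of the 8 genes was called higher and 7 lower, where 35.3% of all genes tested were called higher, 37.9% lower and 73.2% in either direction. The libraries of early LP and HPC did not overlap for 7 of the 8, all but Atrx, against 74.7% of all genes. Their median change was -0.38, beside -0.04 for all genes and -0.69 for the genes called lower. In median LP, Sp100 again rose and the same genes fell except Atrx, which was not called. There 1 was called higher and 6 lower, against 36% and 37.7% of all genes (73.8% in either direction), and 7 did not overlap with HPC, against 75.7%. Both comparisons use the same HPC libraries, so the second is not independent of the first. The counts describe a hand-picked set and carry no test, and the results below are those of each gene.

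**Figure D1:**
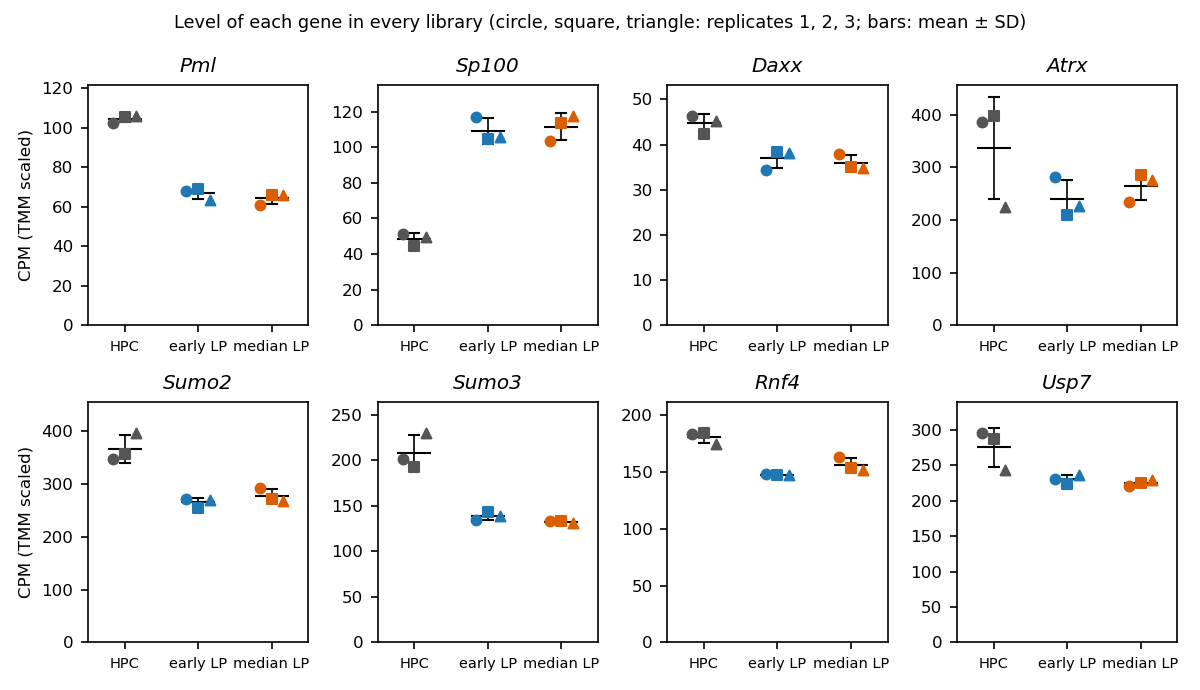
Level of each gene in every library, in CPM with TMM scaling on linear axes from 0 (circle, square and triangle for replicates 1, 2 and 3, horizontal bars for the mean ± SD of n = 3 libraries). Sp100 lies at 44.4 to 51.2 CPM in HPC and at 103 to 118 CPM in both LP groups, and the other genes lie lower in LP, with overlap only for Atrx.

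Pml, the scaffold gene (mm10, chromosome 9, 58217180 to 58249786), had 103, 105 and 106 CPM in the HPC libraries. It had 67.9, 69.0 and 63.4 CPM in early and 61.0, 66.1 and 66.0 CPM in median LP. Each LP library thus lay well under each HPC library, and the ranges of the LP groups overlapped. The means were 105 ± 1.89 in HPC, 66.8 ± 2.98 in early and 64.3 ± 2.94 in median LP (SD, n = 3). Pml fell by 0.65 (SE 0.06, edgeR adjusted p = 1.34e-06) in early LP and fell by 0.70 (SE 0.06, adjusted p = 6.62e-07) in median LP. Of the 8 genes it had the largest fall in both. The table lists no row for the fusion, and whether fragments of the fusion were counted under Pml was not tested. The row's identifiers are those of Pml and Fxyd1, whose own row is separate, while its accessions and position are those of Pml.

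The transcripts of Pml did not keep the same shares in HPC and LP. NM_008884, which skips the exon printed above, had 7.98, 8.16 and 8.38 FPKM in HPC, 3.17, 4.10 and 4.14 in early and 3.14, 2.07 and 2.24 in median LP. NM_178087, which includes it, had 9.25, 9.75 and 10.5 FPKM in HPC, 7.79, 7.40 and 6.60 in early and 7.34, 8.51 and 8.38 in median LP. The form without the exon was therefore the lower in every library, and in both LP groups it lay far below its HPC level. Its share of Pml FPKM was 46.3, 45.6 and 44.3% in HPC, 28.9, 35.6 and 38.6% in early and 29.9, 19.5 and 21.1% in median LP. No LP library reached the HPC range, while early and median LP overlapped. The mean shares were 45.4 ± 0.998%, 34.4 ± 4.95% and 23.5 ± 5.61% (SD, n = 3). An exact permutation test, two-sided, gave p = 0.1 for each LP group against HPC, the smallest that 3 against 3 libraries allow, and p = 0.2 between the LP groups (0.21 and 0.3 after Benjamini-Hochberg adjustment over 21 such tests on ratios and shares). For background, genes with a pair of transcripts were kept if no library had a low summed FPKM and neither form was nearly absent. Of these 1051 genes, 28.9% had shares that did not overlap between early LP and HPC, 30.2% between median LP and HPC and 10.5% between the LP groups. A fit of edgeR on transcripts, chosen after these values had been seen, gave NM_008884 a change of -1.06 (SE 0.14, adjusted p = 0.000176) in early LP and -1.67 (SE 0.14, adjusted p = 1.19e-05) in median LP. The same fit gave NM_178087 a change of -0.39 (SE 0.10, adjusted p = 0.00872) and, in median LP, -0.23 (SE 0.10, adjusted p = 0.0801), which did not pass. Between the LP groups neither form passed, with -0.61 (SE 0.14, adjusted p = 0.126) for NM_008884 and 0.16 (adjusted p = 0.539) for NM_178087. These values rest on how the quantifier divided shared fragments between the forms, and no source used here names that program. The balance of long over short transcripts, as a difference of mean log2 level, was 0.864, 0.715 and 0.674 in early LP 1, 2 and 3. Their shares were 28.9, 35.6 and 38.6%. In median LP 1, 2 and 3 it was 0.707, 0.906 and 0.913, with shares of 29.9, 19.5 and 21.1%. In HPC the balance ran from 0.638 to 1.08 with shares of 44.3 to 46.3%. The part of the balance in the share was not tested.

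**Figure D2:**
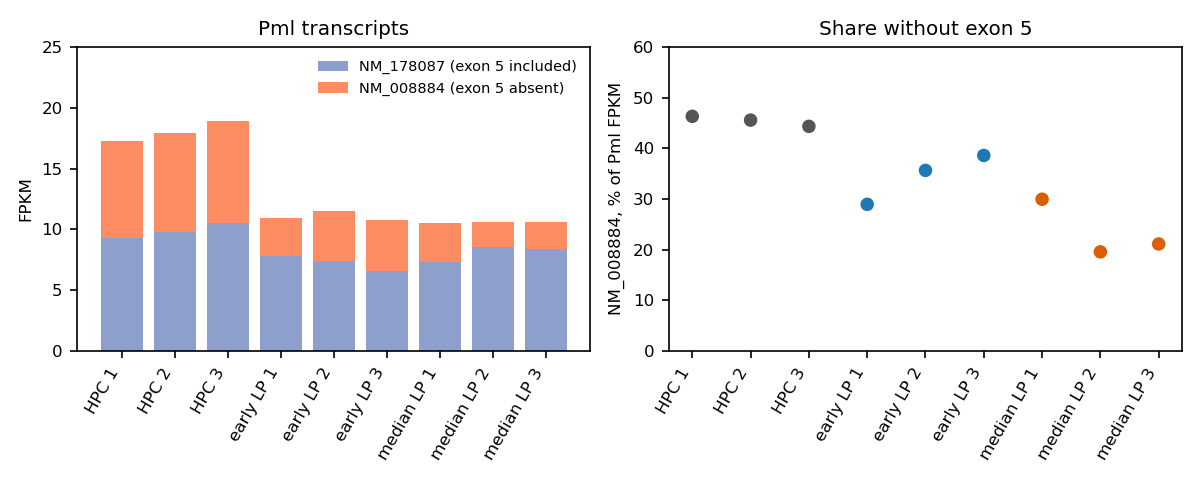
Left, FPKM of both Pml transcripts in each library, stacked from 0; right, percent of Pml FPKM in NM_008884, the form without exon 5, with 1 point per library. The share is 44.3 to 46.3% in HPC, 28.9 to 38.6% in early LP and 19.5 to 29.9% in median LP.

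Sp100 (chromosome 1, 85650050 to 85709448) encodes a constitutive resident of the bodies that carries SUMO itself and that interferon induces in many cells. It stood at 51.2, 44.4 and 49.7 CPM in HPC, at 117, 105 and 106 CPM in early and at 103, 114 and 118 CPM in median LP. It was the single gene of the 8 with higher levels in LP, and there was a wide gap between the groups. The means were 48.4 ± 3.57, 109 ± 7.07 and 112 ± 7.37 CPM (SD, n = 3). It rose by 1.17 (SE 0.08, edgeR adjusted p = 6.91e-08) in early LP and by 1.21 (SE 0.08, adjusted p = 5.27e-08) in median LP. That placed it above 86.7% and 86.4% of the genes tested, and changes past 2-fold were called in 29.8% and 30.7% of them. Of its 50-base stretches in GENCODE M21, 10.6% also occur in transcripts of other genes, 23 pseudogenes among them, so that part of its count is uncertain.

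With Pml lower and Sp100 higher, the order of the pair differed between HPC and LP. Per length, the ratio of Sp100 to Pml FPKM within a library was 0.821 to 0.956 in HPC, 3.08 to 3.49 in early LP and 3.24 to 3.49 in median LP. In HPC the 2 genes were near equal, and in every LP library Sp100 RNA was above 3 times Pml RNA. The means were 0.904 ± 0.0728, 3.26 ± 0.205 and 3.39 ± 0.132 (SD, n = 3), with exact permutation p = 0.1 for each LP group against HPC, which is the smallest possible, and p = 0.4 between the LP groups (adjusted 0.21 and 0.525).

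Daxx (chromosome 17, 33909445 to 33915590) encodes a histone chaperone that PML bodies hold through SUMO and that deposits the replacement variant of histone H3 together with the remodeller ATRX. It stood at 46.3, 42.3 and 45.3 CPM in HPC, 34.4, 38.3 and 38.0 CPM in early and 37.9, 34.99 and 34.7 CPM in median LP. The gap between HPC and LP was narrow, but no library crossed it. Daxx fell by 0.27 (SE 0.07, edgeR adjusted p = 0.00370) and by 0.32 (SE 0.07, adjusted p = 0.00141). Of its transcripts NM_007829 carried 96.1 to 99.6% of FPKM as group means, and the other, NM_001199733, was at 0 in some libraries of HPC and median LP.

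Atrx (chromosome X, 105797615 to 105929372), the remodeller, has the longest transcript of the 8 at 10244 bases and was the least settled. It stood at 386, 397 and 224 CPM in HPC, at 281, 209.7 and 227 CPM in early and at 234, 284 and 275 CPM in median LP. HPC 3 lay inside the range of LP, and the other HPC libraries lay above it. HPC 3 also had the lowest balance of long transcripts (of at least 5 kb) over short ones (1 to 2 kb), at 0.638 against 1.06 and 1.08 in the other HPC libraries. Atrx fell by 0.49 (SE 0.19, edgeR adjusted p = 0.0328) in early LP, and its change of -0.34 (SE 0.19, adjusted p = 0.115) in median LP was not called. Without HPC 3 it fell by 0.71 (adjusted p = 0.000192) and by 0.57 (adjusted p = 0.001004). Without HPC 1, HPC 2, early LP 2 or early LP 3 the call in early LP was lost, with adjusted p = 0.132, 0.155, 0.123 and 0.0820. With the balance, centred within each group, as a covariate Atrx fell by 0.45 (adjusted p = 8.98e-06) and by 0.30 (adjusted p = 0.000324). Centring leaves any difference in balance between the groups unadjusted, and Atrx is itself among the long transcripts. The ratio of Atrx to Daxx FPKM was 1.58 ± 0.429 in HPC, 1.35 ± 0.311 in early and 1.49 ± 0.265 in median LP (SD, n = 3), differences within the spread (exact permutation p = 0.6 and 0.7 against HPC, adjusted 0.7 and 0.774).

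Sumo2 and Sumo3 encode the modifiers that form chains on PML, and Sumo2 had the highest level per length of the 8 in every group. Sumo2 (chromosome 11, 115523109 to 115536230) stood at 347, 357 and 397 CPM in HPC, 272, 255 and 269 CPM in early and 294, 272 and 268 CPM in median LP. Sumo3 (chromosome 10, 77606234 to 77618331) stood at 201, 192 and 229.8 CPM in HPC, 135, 143 and 138 CPM in early and 133, 133 and 132 CPM in median LP. For both, HPC 3 was the highest library and no LP library reached the HPC range. Sumo2 fell by 0.47 (SE 0.07, edgeR adjusted p = 9.54e-05) in early LP and by 0.40 (SE 0.07, adjusted p = 0.000304) in median LP. Sumo3 fell by 0.58 (SE 0.07, adjusted p = 1.76e-05) and by 0.65 (SE 0.07, adjusted p = 7.06e-06), the largest falls after Pml.

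Per length, the ratio of Sumo2 to Sumo3 FPKM was 5.18 ± 0.258 in HPC, 5.70 ± 0.307 in early and 6.17 ± 0.269 in median LP (SD, n = 3). Only median LP and HPC did not overlap in that ratio (exact permutation p = 0.1, adjusted 0.21, against 0.2 and adjusted 0.3 for early LP). Of Sumo2's 50-base stretches 30.2% occur in transcripts of 14 other genes, 11 of them pseudogenes. Of those of Sumo3, 11.5% occur in 1 other gene. The coding sequences of Sumo2 and Sumo3 printed above share no stretch of 50 bases.

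Rnf4 (chromosome 5, 34336390 to 34353430) encodes the ubiquitin ligase that reads SUMO chains on PML and sends it to the proteasome. It stood at 184, 184 and 175 CPM in HPC, at 148 CPM in each early LP library and at 163, 154 and 152 CPM in median LP. In CPM early LP lay lowest, median LP between the others, and no library overlapped with another group. In FPKM the LP groups overlapped (43.4 to 44.7 in early and 43.7 to 48.9 in median LP). The change between them was not called (0.08, SE 0.06, edgeR adjusted p = 0.530). Rnf4 fell by 0.29 (SE 0.06, edgeR adjusted p = 0.000840) in early LP and by 0.21 (SE 0.06, adjusted p = 0.00686) in median LP.

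Usp7 (chromosome 16, 8688722 to 8738342) encodes a deubiquitinase that acts on MDM2 and p53 and has been found at PML bodies. It stood at 295, 287 and 244 CPM in HPC, at 231, 223 and 237 CPM in early and at 220.3, 225 and 230.0 CPM in median LP. HPC 3 was again the HPC library nearest to LP. Usp7 fell by 0.26 (SE 0.08, edgeR adjusted p = 0.00958) in early LP and by 0.29 (SE 0.08, adjusted p = 0.00471) in median LP. The call in early LP was lost without HPC 1 (-0.19, adjusted p = 0.0617) and without HPC 2 (-0.21, adjusted p = 0.0576).

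**Figure D3:**
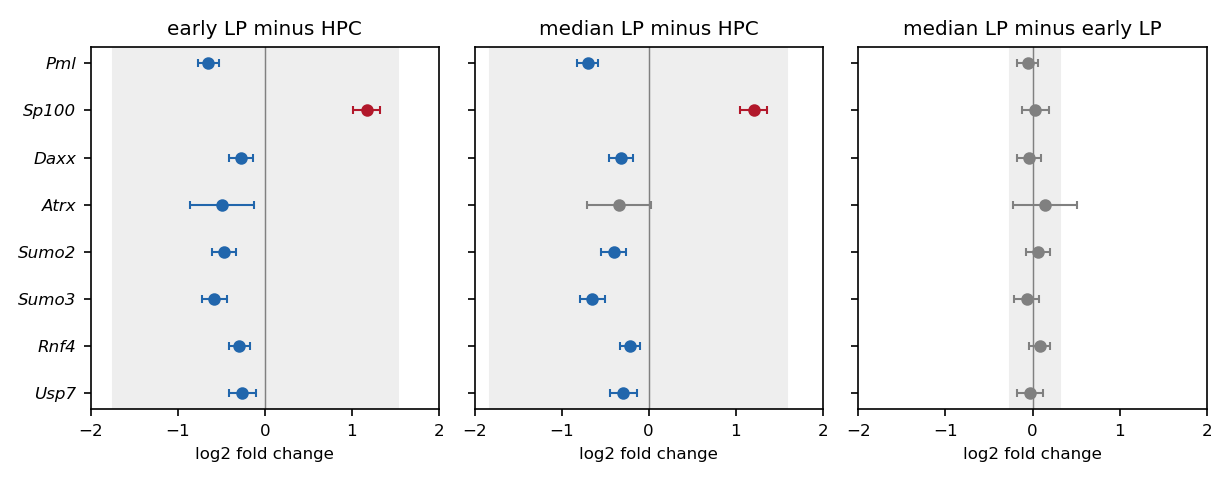
Log2 fold change of each gene in the 3 comparisons, as points with 95% intervals (red called higher, blue called lower, grey not called at an adjusted p of 0.05). The grey band runs from the 10th to the 90th percentile of all 12837 genes, and all 8 genes lie inside it in both comparisons with HPC.

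Between early and median LP none of the 8 genes was called higher or lower, against 1.48% and 0.997% of all genes (2.48% in either direction, and 1.04% with a change of at least 2-fold). At an unadjusted p under 0.05 the count was 0 as well, and DESeq2 called 0. Changes lay between -0.06 (Sumo3) and 0.15 (Atrx), with adjusted p from 0.530 to 0.866. Rnf4 and Sumo3 were the genes whose LP libraries did not overlap in CPM, 2 of 8 against 26.1% of all genes. In FPKM the LP libraries of both overlapped. The 95% intervals, from the SE, leave room for small differences: for Pml from -0.17 to 0.07, for Sp100 from -0.12 to 0.18, for Daxx from -0.18 to 0.09, for Sumo2 from -0.08 to 0.21, for Sumo3 from -0.21 to 0.08, for Rnf4 from -0.04 to 0.20 and for Usp7 from -0.18 to 0.12. Atrx had the widest interval, from -0.22 to 0.51, so a sizeable change in it was not detectable here.

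Ordered by FPKM in HPC, Sumo2 (412 ± 45.2) came first, then Sumo3 (79.8 ± 10.04), Rnf4 (56.5 ± 0.416), Usp7 (41.9 ± 2.47), Atrx (22.2 ± 5.34), Pml (18.01 ± 0.843), Sp100 (16.3 ± 1.498) and Daxx (14.2 ± 0.677), as means ± SD of n = 3 libraries. In that order Atrx and Pml, and Pml and Sp100, overlapped over their libraries, and the other neighbours did not. Sp100 moved from rank 7 to rank 4 in both LP groups, with 36.0 ± 1.93 and 35.8 ± 1.63 FPKM (SD, n = 3), and Pml moved from rank 6 to rank 8, with 11.1 ± 0.387 and 10.6 ± 0.0724. In early LP Sp100 overlapped with Usp7 and Daxx with Pml. In median LP Sumo3 overlapped with Rnf4 and Daxx with Pml.

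**Figure D4:**
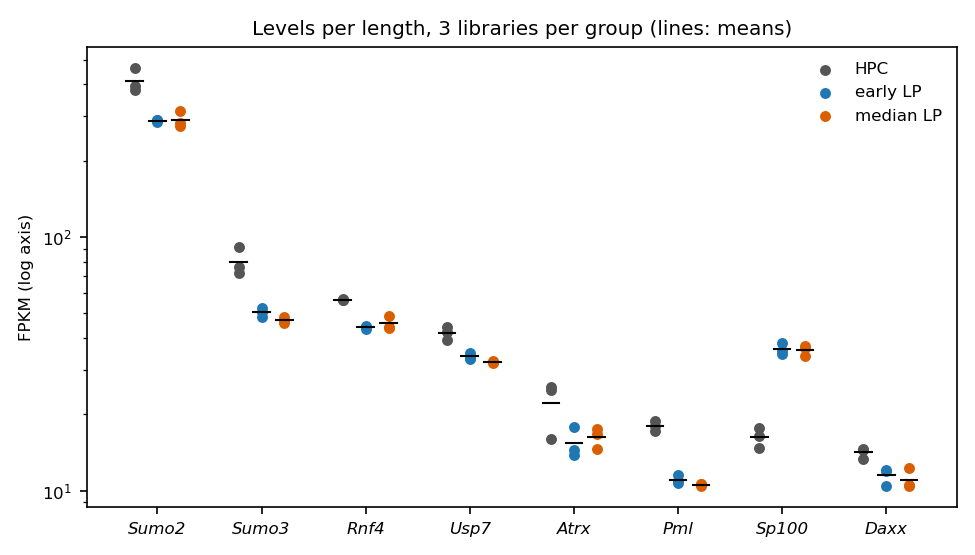
FPKM of the 8 genes in each library on a log axis, ordered by their mean in HPC (grey HPC, blue early LP, orange median LP, lines for means of n = 3 libraries). Sp100 goes from 16.3 in HPC to 36.0 and 35.8 in LP, where its mean passes those of Pml, Atrx and Usp7, while Sumo2 is the highest gene in all 3 groups.

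The cell types labelled were checked against marker lists, since a bulk sample cannot tell apart fewer cells of a type and less RNA per cell. All 5 erythroid markers were lower in LP than in every HPC library, with a summed level of 2639 to 3123 CPM in HPC, 9.84 to 14.7 in early LP and 7.08 to 7.52 in median LP. All 6 stem and multipotent markers were lower (837 to 912 CPM against 255 to 257 and 239.6 to 256, Cd34 at 249.8 to 309.8 CPM against 1.19 to 3.81 CPM over all LP libraries), as were all 3 megakaryocyte markers (96.4 to 123 against 1.67 to 2.75 and 1.10 to 1.93). Of 5 promyelocyte markers 4 were higher in LP and Prtn3 was lower in every median LP library, with sums of 13069 to 14716 CPM in HPC, 34562 to 39549.9 in early LP and 28367 to 30353 in median LP. Of 4 monocyte markers 3 were lower and F13a1 higher, which set the sums of 349.5 to 420.2, 1256 to 1327 and 1196 to 1539 CPM. Late neutrophil markers summed to 1020.1 to 2033, 789 to 896 and 549.8 to 583 CPM, and 2 and 3 of 5 were lower in every LP library. Basophil and mast cell markers summed to 103 to 113, 27.9 to 33.7 and 23.0 to 25.9 CPM. Of these 2 of 3 were lower, and Mcpt8 was higher, at 10.6 to 13.9 CPM in HPC and 21.2 to 31.0 CPM over all LP libraries. B cell markers summed to 14.2 to 16.8, 0.435 to 0.836 and 1.32 to 2.68 CPM (3 and 1 of 4 lower, with Cd79a higher in median LP). T and NK markers summed to 139 to 159, 145 to 159 and 107 to 128 CPM, mostly Nkg7, with Cd3e at 0 in HPC, and the 3 stromal markers to 0.294 to 0.507, 2.48 to 3.596 and 2.73 to 3.60 CPM. These marker levels differed across the same contrasts as the 8 genes, and their part in the changes of Pml, Sp100 and the others was not tested. The genes lie on chromosomes with median changes between -0.14 and -0.01 in both comparisons with HPC, and none lies on chromosome 8 or 15, whose medians were 0.53 and 0.53 in early and 0.51 and 0.51 in median LP.

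By Pearson correlation of log2 CPM over the 9 libraries, a measure that mostly follows the gap between HPC and LP, the genes most like Pml were Pdlim1, Abca3 and Pank1, with r = 0.998, 0.998 and 0.997. Pdlim1 fell from 72.8 CPM in HPC to 0.564 and 0.363 CPM in LP, a far larger change than that of Pml. Abca3 went from 155 to 58.3 and 54.0 CPM and Pank1 from 27.6 to 11.1 and 10.6 CPM.

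The promoter windows of the 8 genes (RefSeq, GRCm38.p6, 250 bases before to 50 after each start) were searched on both strands for the core of the interferon-stimulated response element (GAAA, any 2 bases, GAAA) and for TTCNNNGAA, the core bound by STAT proteins. All 8 had a window, and neither motif was found in any. Of 32851 windows of the same length 3.44% hold the first and 8.30% the second, and the absence says only that these letters are not in these 300 bases.

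The surrounding pathway was read from 6 lists with 81 genes in all. Of 13 other PML body genes, 2 rose, 5 fell and 6 were not called in each comparison with HPC, with medians of -0.15 and -0.14 beside -0.04 for all genes tested. All list counts are to be read beside the share of all genes called, 35.3% higher and 37.9% lower in early LP (73.2% in either direction) and 36% and 37.7% in median LP (73.8%). The list genes given with changes against HPC from here to Irf7 were called in both comparisons, with edgeR adjusted p up to 0.0359 (Irf7 in median LP) and SE from 0.06 to 0.24. The 2 that rose were Sp110 (113 ± 7.57 CPM in HPC, 358 ± 8.12 in early and 332 ± 9.51 in median LP) and Sp140 (49.2 ± 4.32, 177 ± 8.22 and 181 ± 7.52 CPM; SD, n = 3), relatives of Sp100. They rose by 1.66 and 1.55 (Sp110) and by 1.84 and 1.87 (Sp140), each with SE 0.07 or 0.08. Both share their locus with another gene in the table, and 60.4% of the 50-base stretches of Sp110 and 63.1% of those of Sp140 occur in other genes, so their counts are uncertain. Mre11a, of the DNA break sensor, went from 70.0 to 47.1 and 45.5 CPM (-0.57 and -0.62), and Isg20, an exonuclease induced by interferon, from 16.5 to 7.92 and 7.42 CPM (-1.06 and -1.15).

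Among 12 other genes for deposition of the replacement H3 histone, the task of DAXX and ATRX, and for silencing, 2 rose and 7 fell in early LP (median -0.38), and 3 rose and 7 fell in median LP (median -0.47), against 37.9% and 37.7% of all genes called lower. Hira, a chaperone that works in parallel to DAXX, went from 109.8 to 82.7 and 73.7 CPM (-0.41 and -0.58). Asf1a, which hands histones to the chaperones, changed by -1.01 and -0.96, and Cbx1, of heterochromatin, by -1.10 and -0.89. Both share their locus with another gene. Cbx3, a related heterochromatin protein, went from 283 to 176 and 182 CPM (-0.68 and -0.64).

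Of 15 SUMO conjugation genes 5 rose and 5 fell in early LP (median -0.03), and 6 rose and 5 fell in median LP (median -0.04). Calls in either direction covered 73.2% and 73.8% of all genes, so these counts lie near the share of all genes. Among those that fell with Sumo2 and Sumo3 were both subunits of the activating enzyme, Sae1 (-0.41 and -0.45) and Uba2 (-0.47 and -0.52), and the ligase and corepressor Trim28, from 590.1 to 393 and 355 CPM (-0.59 and -0.73). The ligase gene Nsmce2 rose, from 43.0 to 64.8 and 59.0 CPM (0.59 and 0.46, on chromosome 15). Sae1 falls outside the naming rule and was chosen after its values were seen.

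Of 13 genes for SUMO removal and SUMO-targeted degradation 2 rose and 7 fell in early LP (median -0.18), and 1 rose and 4 fell in median LP (median -0.15), where 35.3% and 36% of all genes were called higher and 37.9% and 37.7% lower. Senp6 and Senp7, the proteases that trim chains of Sumo2 and Sumo3, went from 161 to 97.2 and 98.1 CPM (-0.73 and -0.71) and from 57.2 to 31.8 and 33.3 CPM (-0.85 and -0.78). Senp3, a nucleolar protease, changed by -0.28 and -0.17, and Desi2, of another protease family, by -0.34 and -0.27. Of 8 partners of USP7, 2 rose and 3 fell in early LP (median 0.03), and 2 rose and 2 fell in median LP (median -0.07), beside 73.2% and 73.8% of all genes called in either direction. Trp53, which encodes p53, went from 231 to 148 and 138 CPM (-0.64 and -0.74) and Gmps from 169 to 143 and 141 CPM (-0.24 in early and -0.26 in median LP). Dnmt1 went from 502 to 590 and 572 CPM (0.23 and 0.19). The call of Dnmt1 in median LP was lost without HPC 3, early LP 3, median LP 2 or median LP 3 (adjusted p = 0.0521 to 0.111), and that of Senp3 without median LP 1 (0.0724).

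Of the 20 interferon genes 19 were tested, all but Ifit3, and 11 rose and 6 fell in early LP (median 0.25), while 12 rose and 4 fell in median LP (median 0.46), beside 35.3% and 36% of all genes called higher and 37.9% and 37.7% lower. Oas1a, an antiviral enzyme, went from 16.3 to 39.2 and 43.1 CPM (1.27 and 1.40) and Bst2, which tethers virus particles, from 34.6 to 68.1 and 72.3 CPM (0.98 and 1.06, on chromosome 8). Other genes of the same response fell with Pml: Irf9 (-1.18 and -1.09), Irf1 (-0.78 and -0.66) and Irf7 (-1.30 and -0.58), chosen after their values were seen. Between the LP groups 2 of the list genes tested were called, a share near the 2.48% of all genes: Ifit1 and Rsad2, both in the interferon list and both higher in median LP.

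**Figure D5:**
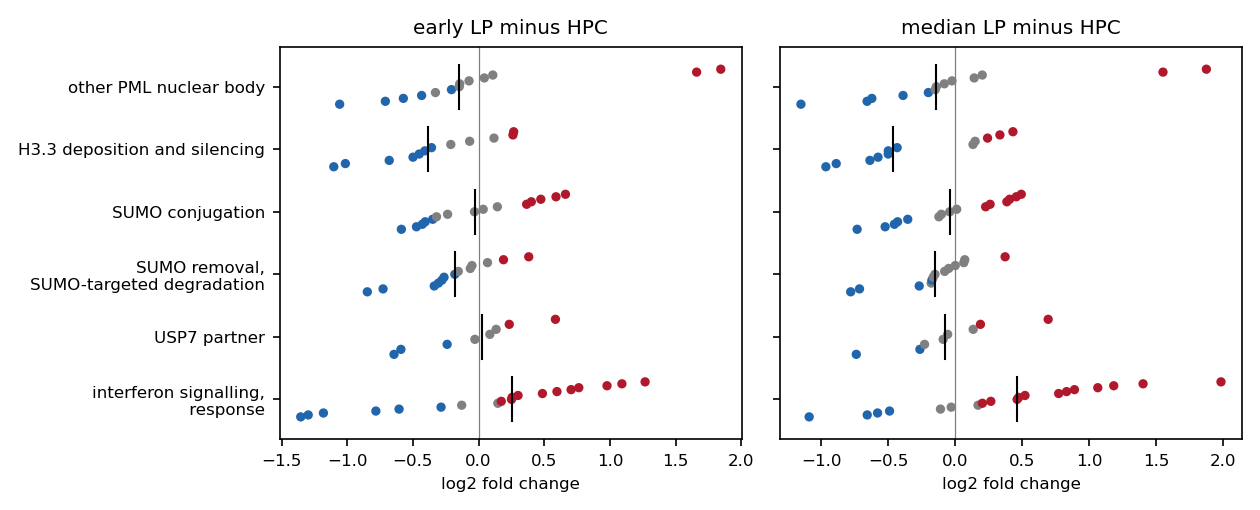
Log2 fold change of each tested gene of the 6 lists against HPC, with 1 point per gene (red called higher, blue called lower, grey not called) and a vertical bar at each list's median. The medians run from -0.38 to 0.25 in early LP and from -0.47 to 0.46 in median LP, beside -0.04 for all genes in both.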

How the data were processed

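The authors deposited 1 table of 21388 RefSeq transcripts, which holds for every library a column of estimated counts and a column of FPKM, per the file headers. The submitters' processing notes name TopHat2 2.0.6 and mm10, and per the labels' protocols, libraries were made with a TruSeq RNA kit from Trizol RNA. The sources used here name neither the quantifier nor the strand setting. Both deposited units carry a scaling: low estimated counts were multiples of a step of 0.867 to 1.23 per library, and 90.3 to 91.7% of values up to 50 steps were whole within 0.05 after division by it. Deposited starts were raised by 1.

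Transcripts were summed by gene name, estimated counts were rounded, and all 9 libraries entered 1 fit in edgeR 4.0.16 (R 4.3.3) with TMM scaling, filterByExpr and 1 coefficient per group (common coefficient of biological variation 9.81%; 3700 genes left out; calls at an adjusted p under 0.05, two-sided). Where the table also holds FPKM, counts were the main unit. Alternatives were DESeq2 1.42.0, limma 3.58.1 on log2(FPKM + 0.1) or log2(FPKM + 1), other scaling, filters and samples, recovered fragments and the replicate number as a block. A further alternative was a covariate for long transcripts, centred within each group. The fit was also run on simulated counts in which a small part of the genes was changed, in early LP alone. That run does not show how the fit behaves where most genes are called, as they are here against HPC. Named were the 8 genes, up to 4 genes per list with the smallest adjusted p and the 3 genes most like Pml; a few genes that this rule names are not reported here. The genes and lists were chosen with earlier results of these data known. No libraries of a group were the same within counting noise (chi-square per degree of freedom 6.07 to 107, highest for pairs with early LP 2).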

Additional observations from a re-analysis of the deposited data

Results flagged for a closer look

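None of the 8 genes stood out between early and median LP. In the interferon list, the change against HPC differed between the LP groups by a test of the difference itself for 2 genes. Ifit1, an antiviral RNA-binding protein, had means of 0.886 ± 0.0437 (HPC), 1.90 ± 0.357 (early LP) and 3.52 ± 0.146 CPM (median LP; SD, n = 3), and its log2 change was 0.89 higher in median LP (edgeR adjusted p = 0.0243). Rsad2, the antiviral enzyme viperin, stood at 0.585 ± 0.0399, 0.227 ± 0.134 and 1.34 ± 0.261 CPM (SD, n = 3), so that it lay below HPC in early LP (-1.35) and above it in median LP (1.18), a difference of 2.54 (adjusted p = 0.00442). Both are low genes, the call of Ifit1 was lost without early LP 2, early LP 3, median LP 1, median LP 2 or median LP 3, and all libraries of median LP lay above those of early LP for each. Rsad2, at 0.0833 to 0.348 CPM in the early LP libraries, was not refitted. Whether its call holds without single libraries was therefore not tested.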

How the results depend on the processing

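Each of the 8 genes was refitted under 19 alternatives per comparison. Sp100 was the single gene called higher against HPC in all, between 5 and 7 were called lower in early LP and 6 or 7 in median LP, and 0 were called between the LP groups. Of 152 values in early LP 145 kept direction and call and 7 lost the call, 5 of Atrx and 2 of Usp7, all named above but Atrx with only the 6 libraries compared (adjusted p = 0.0518). Of 152 in median LP 149 kept both and Atrx gained the call in 3, the 2 named above and limma on log2(FPKM + 1) (-0.40, adjusted p = 0.0492). The replicate numbers did not pair the libraries: deviations of libraries with the same number correlated at -0.213 to 0.115, those with other numbers at -0.218 to 0.218, and 2 of 18 correlated best with their own number. With the replicate block, all genes called higher and lower were 130 and 62 between the LP groups, against 190 and 128, and 4467 and 4735 in early LP against HPC; of the genes refitted, Ifit1 between the LP groups lost its call (adjusted p = 0.0635). The alternatives were run for the genes that the naming rule gives, not for Sae1, Irf1, Irf7, Irf9 and Rsad2. The count of all genes called higher and lower between the LP groups was also 66 and 39 without early LP 2 and 765 and 592 with the covariate for long transcripts. With that covariate Hira, not called between the LP groups in the main fit, was called lower in median LP (-0.17, edgeR adjusted p = 0.0333). Ifit1 between the LP groups lost its call without any single LP library but early LP 1 (adjusted p = 0.0623 to 0.120), Senp3 in median LP without median LP 1 (0.0724) and Dnmt1 in median LP under 6 alternatives, among them upper quartile scaling (0.166), which moved the median of all genes to -0.11 and -0.12. In the fit on transcripts, the minor Daxx form NM_001199733 had changes of 1.18 (SE 1.44) in early LP and -2.08 in median LP, neither called. The number of libraries and the short distance between the LP groups limit what can be told between them, and levels of RNA say nothing of protein.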
